A study of Mus musculus with 4 samples.

Results

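Chemokines and colony-stimulating factors that recruit and expand myeloid cells were examined as 9 genes: the chemokines Cxcl1, Cxcl2, Cxcl3, Cxcl5, Ccl2 and Ccl7, and the growth factors Csf1, Csf2 and Csf3. They were chosen by symbol, and each matched 1 row among the 55335 gene identifiers of the deposited table. The table gives RNA-seq values of CT26, a colon carcinoma line derived from a BALB/c mouse, as FPKM, that is, fragments divided by transcript length and by the mapped fragments of the library. The libraries titled CT26_102_R and CT26_CTL_R are labelled FOSL2-KO with chemoradiotherapy, and those titled CT26_102 and CT26_CTL are labelled FOSL2-WT with PBS. As labelled, genotype and treatment change together and cannot be told apart. The titles also give a stem, CT26_102 or CT26_CTL, which the labels do not explain, and suffix R coincides with the label FOSL2-KO with chemoradiotherapy. Whether stem and suffix mark some other layout of genotype and treatment cannot be settled from the labels, so comparisons are named by stem and suffix. The labels give no dose, drug or time, and knockdown rather than knockout is the word of the study's design note. Each combination of stem and suffix was 1 library, and no label tells whether cultures were separate. The p-values therefore cover these 4 samples alone. With stem and suffix both in the fit, their error comes from how unlike the suffix difference was between the stems. It is pooled with a prior estimate from all tested genes. That error is not a spread among replicates, and it may be technical.

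Estimated depth was between about 21700000 and 26500000 fragments per library. Fosl2, the gene named by the genotype labels, had 16.0 FPKM in CT26_102_R and 9.35 in CT26_102, and 19.2 in CT26_CTL_R and 12.7 in CT26_CTL, so its transcript was higher in the libraries labelled FOSL2-KO. Of 11 markers of colon epithelium, 3 reached 1 FPKM in any library (Krt8, Krt18 and Krt20), whereas Epcam and Cdx2 were listed at 0 in all 4. Of the 8 fibroblast and mesenchymal markers, 5 reached 1 FPKM. One label calls the cells mesenchymal and another gives colon adenocarcinoma.

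Tumour cells and stroma release these factors to draw neutrophils and monocytes from the blood and to keep them alive in tissue. Cxcl1, Cxcl2, Cxcl3 and Cxcl5 encode chemokines that act on the receptor CXCR2 of neutrophils, and Ccl2 and Ccl7 encode chemokines that act on CCR2 of monocytes. Csf1 encodes M-CSF, the survival factor of macrophages, Csf2 encodes GM-CSF, and Csf3 encodes G-CSF, which drives neutrophil production. Many of these genes are known to be switched on through NF-kB, which binds kappa-B sites in their promoters, and their mRNAs are known to be short-lived through AU-rich elements in the 3' untranslated region (3' UTR).

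Promoter windows were available in RefSeq (build GRCm38.p6) for 5 of the 9 genes, namely Cxcl1, Cxcl2, Cxcl3, Csf1 and Csf2. Each window runs from 250 bases before the start to 50 bases after it. The windows of Cxcl1, Cxcl2 and Cxcl3 are printed because these neighbouring paralogs carry one identical kappa-B match and yet had very unlike transcript levels, and that of Csf1 because it was the most abundant of the 9 genes. Capitals mark matches to the NF-kB consensus and, in Cxcl3, to the TATA box motif TATAAA. The windows lie at chr5:90890995-90891294 (plus strand) for Cxcl1, chr5:90903649-90903948 (plus strand) for Cxcl2, chr5:90785851-90786150 (plus strand) for Cxcl3 and chr3:107760420-107760719 (minus strand) for Csf1.
Cxcl1: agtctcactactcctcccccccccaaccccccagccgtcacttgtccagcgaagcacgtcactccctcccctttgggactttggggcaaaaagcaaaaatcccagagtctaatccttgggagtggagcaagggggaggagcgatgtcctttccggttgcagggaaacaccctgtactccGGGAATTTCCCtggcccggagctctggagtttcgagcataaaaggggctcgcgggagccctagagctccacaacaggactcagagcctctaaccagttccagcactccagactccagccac
Cxcl2: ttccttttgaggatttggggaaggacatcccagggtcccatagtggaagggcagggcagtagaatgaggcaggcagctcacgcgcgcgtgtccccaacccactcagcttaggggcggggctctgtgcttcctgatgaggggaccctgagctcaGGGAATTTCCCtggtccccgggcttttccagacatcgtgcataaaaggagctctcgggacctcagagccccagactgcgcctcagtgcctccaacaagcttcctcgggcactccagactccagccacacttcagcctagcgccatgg
Cxcl3: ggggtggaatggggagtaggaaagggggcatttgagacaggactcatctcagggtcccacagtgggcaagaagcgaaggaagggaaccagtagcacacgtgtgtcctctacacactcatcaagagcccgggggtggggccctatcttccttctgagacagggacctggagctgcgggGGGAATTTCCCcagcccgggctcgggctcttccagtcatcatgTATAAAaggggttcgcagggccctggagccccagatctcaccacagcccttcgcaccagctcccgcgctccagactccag
Csf1: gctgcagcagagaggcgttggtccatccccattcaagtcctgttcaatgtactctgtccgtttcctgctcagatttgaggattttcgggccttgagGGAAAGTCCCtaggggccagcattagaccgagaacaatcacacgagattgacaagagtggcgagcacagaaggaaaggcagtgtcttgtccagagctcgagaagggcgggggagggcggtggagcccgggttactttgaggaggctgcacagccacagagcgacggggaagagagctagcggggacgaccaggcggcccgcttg

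The kappa-B match GGGAATTTCCC was identical in the 3 chemokine promoters. It lay from 71 to 61 bases before the start of Cxcl1, from 97 to 87 before that of Cxcl2 and from 73 to 63 before that of Cxcl3. The consensus was matched on each strand there, and both matches overlap within these 11 bases. Csf1 held a single match on the opposite strand, from 154 to 145 bases before its start. The NF-kB consensus was found on either strand in 4.51% of 32851 RefSeq promoter windows of this length. The AP-1 site, TGA and TCA with any base between them, searched on both strands and present in 7.81% of windows, was not matched in any of the 5. The C/EBP site TTGCNNAA, present in 10.8% of windows, was matched in Csf2 alone, and TATAAA, present in 13.6%, in Cxcl3 alone. The RefSeq start of Csf2 lies 232 bases upstream of the GENCODE start, so its window does not cover the same stretch as the others. A match is a description of the letters and not evidence of a bound site.

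**Figure D1:**
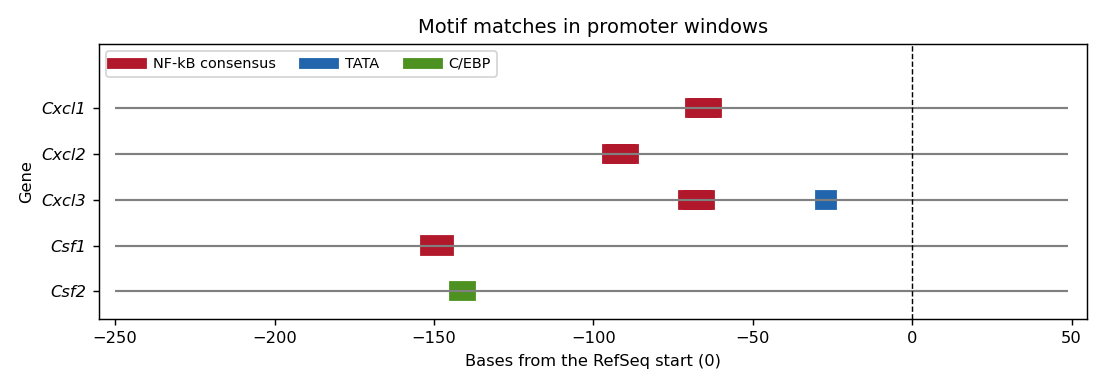
Positions of motif matches in the 5 promoter windows, in bases from the RefSeq start (0), with 1 line per gene and coloured boxes for matches on either strand. The NF-kB consensus is matched in Cxcl1, Cxcl2, Cxcl3 and Csf1, and the C/EBP site in Csf2.

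The 3' UTRs of the same genes were rich in the AU-rich pentamer ATTTA, given in DNA letters. All 9 had more copies per kilobase than the median of 1.13 over 21021 protein-coding genes. Csf2 had 9 copies in 317 bases, or 28.4 per kilobase, which exceeded the density in 99.9% of genes. Cxcl2 had 11 copies in 734 bases and Cxcl1 had 7 in 592 bases, while Csf1 had 4 in 2111 bases, or 1.89 per kilobase. The longer element TTATTTATT was present in Cxcl1, Cxcl2, Cxcl3 and Csf2, against 6.98% of all genes. The longest unbroken repeats are shown for 4 genes, with the repeat in capitals, because they separate Csf2 from Csf1 most plainly.
Csf2: atATTTATTTATTTATTTATTTAtt
Cxcl2: ctatgtATTTATTTATTTAttaatt
Cxcl1: agggtcctATTTATTTAtgtattta
Csf1: tactgccactATTTAttgtgggccc

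**Figure D2:**
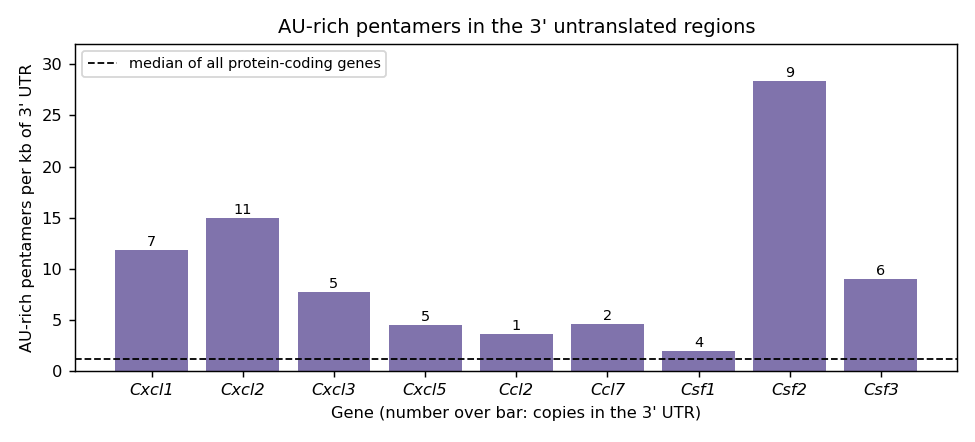
Copies of the AU-rich pentamer per kilobase of 3' UTR for the 9 genes (bars), with the number of copies above each bar and the median of all protein-coding genes as a dashed line. Csf2 stands at 28.4 per kilobase and Csf1 at 1.89, against the median of 1.13.

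Cxcl1, known in the mouse as KC, was the most abundant of the 4 CXCR2 ligands among the 9 genes in every library. It was higher with suffix R in each stem. Cxcl1 (ENSMUSG00000029380, GRCm38 chromosome 5, 90891241 to 90893115, plus strand) had 10.8 FPKM in CT26_102_R and 0.963 in CT26_102. In the other stem Cxcl1 had 77.0 FPKM in CT26_CTL_R and 11.1 in CT26_CTL. The level with suffix R was thus 11.3 times that without it in stem CT26_102 and 6.91 times in stem CT26_CTL. The labelled groups nevertheless overlapped, since CT26_102_R stood just below CT26_CTL. On the log2(FPKM + 1) scale, which understates changes of low genes, Cxcl1 rose by 2.64 ± 0.13 with suffix R (SE, limma with the stem in the fit, 2 libraries per group, adjusted p = 0.00886). That was the 16th highest difference of 11955 tested genes. On this scale the rise was 2.59 in stem CT26_102 and 2.68 in stem CT26_CTL. That gap of -0.09 could not be tested with 1 library per combination. The FPKM ratios of 11.3 and 6.91 order the stems the other way. Adding 1 to the 0.963 FPKM of CT26_102 shrinks the rise in that stem. The standard error rests in part on the gap on this scale. In bulk samples, a change in the share of cells that express a gene and a change in RNA per cell cannot be told apart.

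Cxcl1 also differed between the stems, in the opposite sense. Its level in stem CT26_102 was 0.141 times that in stem CT26_CTL with suffix R and 0.0864 times without it. Both CT26_102 libraries lay below both CT26_CTL libraries. The log2 difference was -2.67 ± 0.13 (SE, 2 libraries per stem, limma with the suffix in the fit, adjusted p = 0.00321), the 8th lowest of all tested genes.

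The other CXCR2 ligands among the 9 genes stayed near or below 1 FPKM. A gene had to reach that level in at least 2 libraries to be tested, so their values are given with no test. Cxcl5 (chromosome 5, 90759360 to 90761624) had 1.14 FPKM in CT26_102_R and 0.279 in CT26_102, and 0.624 in CT26_CTL_R and 0.402 in CT26_CTL. Both libraries with suffix R were above both without, by 4.08 times in stem CT26_102 and 1.55 times in stem CT26_CTL. The ratio of 1.55 rests on about 25 fragments in CT26_CTL_R and 20 in CT26_CTL, so that order is uncertain. Cxcl3 (chromosome 5, 90786103 to 90789600) had 0.0118 FPKM in CT26_102_R and 0.0379 in CT26_102, and 0.255 in CT26_CTL_R and 0.189 in CT26_CTL. For Cxcl3 both CT26_102 libraries were thus below both CT26_CTL libraries. Cxcl2 (chromosome 5, 90903871 to 90905938) had 0.0196 FPKM in CT26_102_R and was listed at 0 in CT26_102, and was listed at 0 in CT26_CTL_R against 0.183 in CT26_CTL. At the estimated depths and the full exonic lengths, Cxcl2 was represented by at most 10 fragments in any library, Cxcl3 by at most 19 and Cxcl5 by at most 51. For Cxcl2 the numbers were about 1 in CT26_102_R and 0 in CT26_102, too small to order that stem. In the other stem Cxcl2 was lower with suffix R, at 0 in CT26_CTL_R against about 10 in CT26_CTL. For Cxcl3 the numbers were about 1 in CT26_102_R and 3 in CT26_102, and 19 in CT26_CTL_R and 18 in CT26_CTL. No direction for suffix R can be read from these.

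The 4 CXCR2 ligand genes lie within 146.6 kb of chromosome 5, and Cxcl2 is the nearest of the others to Cxcl1. Ppbp and Pf4, which encode platelet chemokines, lie between Cxcl5 and Cxcl3. Ppbp had 1.47 FPKM in CT26_102_R and 0.884 in CT26_102, and 1.21 in CT26_CTL_R and 0.844 in CT26_CTL. Pf4 had 0.375 FPKM in CT26_102_R and 0.0981 in CT26_CTL_R and was listed at 0 in both libraries without the suffix. Cxcl15 was listed at 0 in all 4 libraries. Cxcl1 was the only gene of this stretch above 2 FPKM in any library. Coding sequences were 75.7% identical between Cxcl1 and Cxcl2, 72.7% between Cxcl1 and Cxcl3, and 89.7% between Cxcl2 and Cxcl3. No stretch of 50 bases was shared between transcripts of Cxcl1 and those of Cxcl2, Cxcl3 or Cxcl5. Transcripts of Cxcl2 shared 5.84% of their stretches of 50 bases with Cxcl3, so the low values of that pair are uncertain where reads could be split.

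The CCR2 ligands were scarce in every library. Ccl2 (ENSMUSG00000035385, chromosome 11, 82035571 to 82037453, plus strand), or MCP-1, had 0.602 FPKM in CT26_102_R and 0.202 in CT26_102, and 0.228 in CT26_CTL_R and 0.132 in CT26_CTL. Ccl7 (chromosome 11, 82045712 to 82047525, plus strand) had 0.517 FPKM in CT26_102_R and 0.230 in CT26_CTL_R and was listed at 0 in CT26_102 and CT26_CTL. For both genes the libraries with suffix R were above those without it, and CT26_102_R was the highest of the 4. The values of Ccl7 corresponded to about 10 fragments in CT26_102_R and 4 in CT26_CTL_R. Those of Ccl2 corresponded to about 17 in CT26_102_R and 5 in CT26_102, and to 6 in CT26_CTL_R and 4 in CT26_CTL. The order of CT26_CTL_R above CT26_102 and CT26_CTL for Ccl2 is therefore uncertain. An annotated gene on the opposite strand, Gm17268, overlaps Ccl2 and was listed at 0 throughout. Whether the counting used strand is not given in the sources used here.

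Csf1, the macrophage growth factor, was the most abundant of the 9 genes in each library. Csf1 (ENSMUSG00000014599, chromosome 3, 107741048 to 107760469, minus strand) had 55.9 FPKM in CT26_102_R and 24.9 in CT26_102. It had 90.9 FPKM in CT26_CTL_R and 58.3 in CT26_CTL. Suffix R went with 2.24 times the level in stem CT26_102 and 1.56 times in stem CT26_CTL, and the labelled groups overlapped because CT26_102_R lay just under CT26_CTL. Csf1 rose by 0.88 ± 0.16 on the log2 scale with suffix R (SE, 2 libraries per group, limma, adjusted p = 0.0370). Csf1 was lower in stem CT26_102 than in stem CT26_CTL by every comparison, at 0.615 times with suffix R and 0.427 times without it, a log2 difference of -0.94 ± 0.16 (SE, 2 libraries per stem, limma, adjusted p = 0.0220). These differences ranked 503rd from the highest and 346th from the lowest of 11955 tested genes, less extreme than those of Cxcl1 and Csf2.

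Csf2, which encodes GM-CSF, had the highest relative rise with suffix R among the 3 tested genes. Csf2 (ENSMUSG00000018916, chromosome 11, 54247271 to 54249667, minus strand) had 7.55 FPKM in CT26_102_R and 0.0578 in CT26_102, and 37.4 FPKM in CT26_CTL_R and 4.36 in CT26_CTL. Both libraries with suffix R were above both without it, whereas the stems overlapped. The value in CT26_102 corresponded to about 1 fragment of this 800-base transcript and that in CT26_102_R to about 146. The ratio of 131 in stem CT26_102 therefore has a 95% interval of 23.1 to 5200 (exact binomial, counting error only). In stem CT26_CTL the ratio was 8.59 with an interval of 6.92 to 10.8, from about 651 fragments in CT26_CTL_R and 92 in CT26_CTL. The fitted log2 difference was 2.93 ± 0.14 (SE, 2 libraries per group, limma, adjusted p = 0.00886), the 10th highest of all tested genes. Both the difference and its error depend on the pseudocount because of the value near 0. With 0.1 in place of 1 the difference was 4.34 ± 0.60 (SE, limma, adjusted p = 0.0312). The level of Csf2 in stem CT26_102 was 0.202 times that in stem CT26_CTL with suffix R and 0.0133 times without it. Between the stems Csf2 fell by 2.25 ± 0.14 on the log2 scale in stem CT26_102 relative to stem CT26_CTL (SE, limma, adjusted p = 0.00394). With a pseudocount of 0.1 in place of 1 that difference was -3.56 ± 0.60 (SE, limma, adjusted p = 0.0261).

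Csf3, the neutrophil growth factor G-CSF, stayed below the level for testing. Csf3 (chromosome 11, 98701263 to 98703629, plus strand) had 0.582 FPKM in CT26_102_R and 0.149 in CT26_102, and 0.282 in CT26_CTL_R and 0.0534 in CT26_CTL. The libraries with suffix R were higher by 3.90 and 5.29 times within their stems and did not overlap with the others. The values corresponded to about 20 fragments in CT26_102_R and 5 in CT26_102, and to 9 in CT26_CTL_R and 2 in CT26_CTL. The order of CT26_CTL_R above CT26_102 is therefore uncertain. Within each suffix Csf3 was higher in stem CT26_102, by 2.06 times with suffix R and 2.79 times without it, unlike Csf1 and Csf2. The ratio of 2.79 rests on about 5 fragments against 2 and is uncertain.

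**Figure D3:**
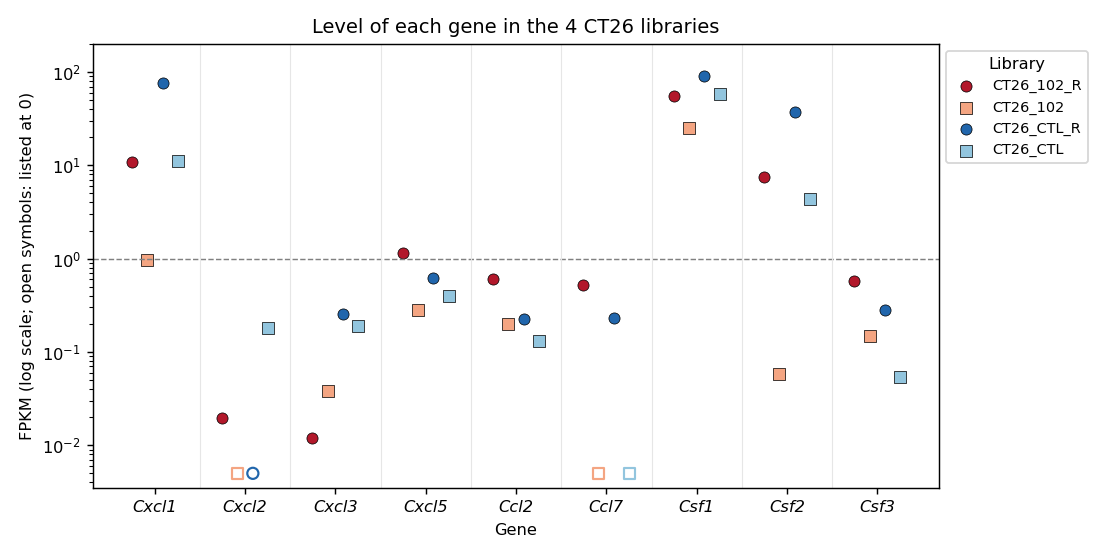
FPKM of each of the 9 genes in the 4 libraries on a log axis, with circles for libraries with suffix R, squares for those without it, open symbols for values listed at 0 and a dashed line at 1 FPKM. Csf1 lies between 24.9 and 90.9 FPKM, Cxcl1 between 0.963 and 77.0 and Csf2 between 0.0578 and 37.4, while the other 6 genes reach at most 1.14.

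Of the 9 genes, 3 could be tested and 6 could not. All 3 tested genes (Cxcl1, Csf1 and Csf2) rose with suffix R, where 7.57% of the 11955 tested genes did so and 5.32% fell. With upper-quartile scaling those shares were 7.84% and 8.46%, and the 3 genes passed in the same direction. In FPKM, 7 of the 9 genes were higher with suffix R in each stem, all but Cxcl2 and Cxcl3, against 28.7% of the 27670 genes above 0 in any library. For 5 genes (Cxcl5, Ccl2, Ccl7, Csf2 and Csf3) both libraries with suffix R were above both others, against 17.7% of those genes. For Ccl2 that order rests on about 6 fragments in CT26_CTL_R against 5 in CT26_102, and for Ccl7 on 4 in CT26_CTL_R against 0. For Csf3 it rests on about 9 in CT26_CTL_R against 5 in CT26_102, and for Cxcl5 on 25 in CT26_CTL_R against 20 in CT26_CTL. The order is therefore uncertain for Ccl2, Csf3 and Cxcl5. Between the stems the 3 tested genes were lower in CT26_102, where 9.44% of tested genes were lower and 12.5% higher. With median-of-ratios scaling these shares were 11.0% and 9.95%, and the 3 genes again passed in the same direction. Cxcl1, Cxcl3 and Csf1 had both CT26_102 libraries below both CT26_CTL libraries, against 14.2% of the 27670 genes. The values of Ccl2 and Csf3 had the other order, higher in stem CT26_102 with and without the suffix. Without the suffix this rests on about 5 fragments in CT26_102 against 4 in CT26_CTL for Ccl2. For Csf3 it rests on about 5 against 2, so both orders without the suffix are uncertain. None of the 3 tested genes passed when the tested division stood alone in the fit, with adjusted p of 0.508 for Cxcl1, 0.553 for Csf1 and 0.455 for Csf2 for suffix R and of 0.354, 0.374 and 0.448 between the stems (limma). That fit called 0.00836% of all tested genes for suffix R and 0.284% between the stems. Without the filter on low values the adjusted p was 0.153, 0.169 and 0.153 for suffix R, and 0.0673, 0.107 and 0.0839 between the stems, with 27670 genes tested and 0 called.

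**Figure D4:**
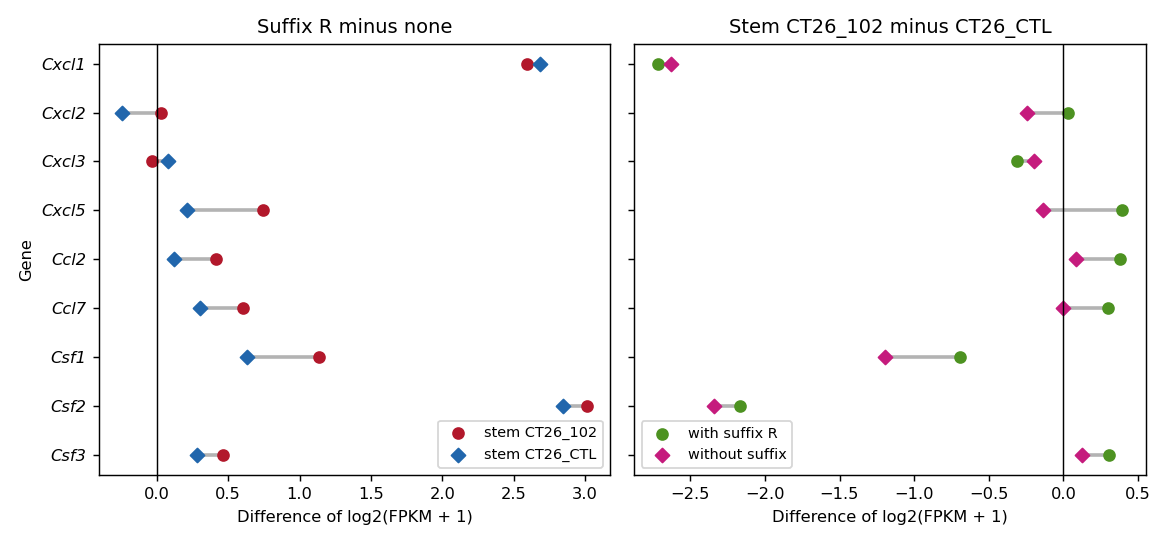
Differences of log2(FPKM + 1) for the 9 genes, with suffix R minus none in each stem (left) and stem CT26_102 minus CT26_CTL with and without the suffix (right), 1 point per pair of libraries. Cxcl1 and Csf2 stand near 2.6 to 3.0 on the left and -2.2 to -2.7 on the right in both pairs, Csf1 at 1.13 and 0.63 on the left, and the other 6 genes within 0.75 of 0.

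**Figure D5:**
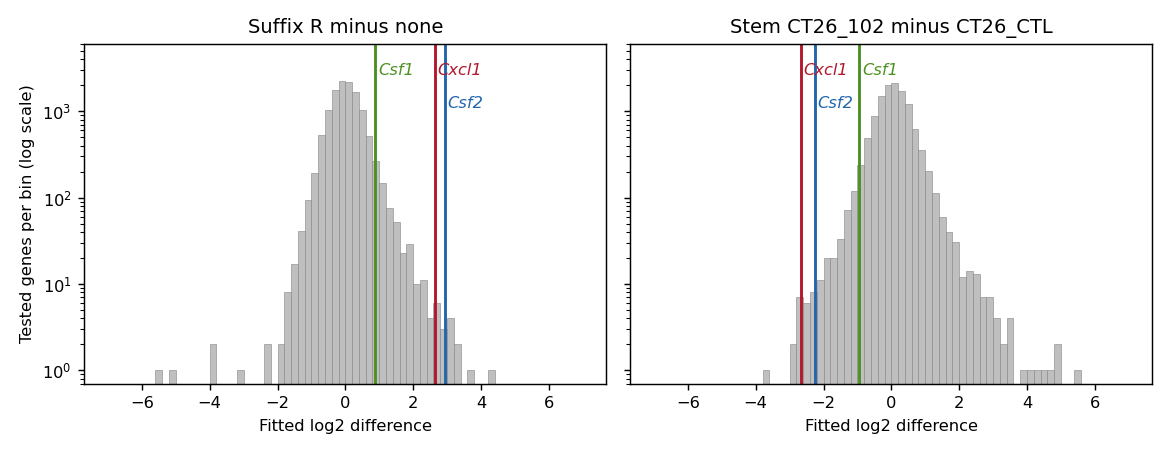
Distribution of the fitted log2 difference over the 11955 tested genes on a log count axis, for suffix R minus none (left) and stem CT26_102 minus CT26_CTL (right), with the 3 tested genes as lines. Csf2 at 2.93 and Cxcl1 at 2.64 lie in the upper tail on the left, and Cxcl1 at -2.67 and Csf2 at -2.25 in the lower tail on the right. Csf1 lies less far out, at 0.88 on the left and -0.94 on the right.

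The gene whose profile over the 4 libraries came closest to that of Cxcl1 was Csf2, at a Euclidean distance of 0.53 between centred log2(FPKM + 1) profiles. It was followed by Cxcl10 at 0.54, Cnfn at 0.84 and Ccl5 at 1.10. Adding 1 compresses low values, and in FPKM Cxcl1 and Csf2 were less alike. With suffix R in stem CT26_102 the ratio was 131 for Csf2, from about 1 fragment in CT26_102, and 11.3 for Cxcl1. The distances were not computed with another pseudocount. Cxcl10, a T cell chemokine, had 25.8 FPKM in CT26_102_R and 2.02 in CT26_102, and 106 in CT26_CTL_R and 21.5 in CT26_CTL. Cnfn, which encodes cornifelin, had 3.84 FPKM in CT26_102_R and 0.828 in CT26_102, and 49.5 in CT26_CTL_R and 6.91 in CT26_CTL. The nearest profiles to Csf1 were those of Prkrip1 (0.04), Vps37b (0.06), BC031181 (0.11) and Cox19 (0.13). Vps37b, a subunit of the ESCRT-I sorting complex, had 32.6 FPKM in CT26_102_R and 14.1 in CT26_102, and 54.4 in CT26_CTL_R and 32.7 in CT26_CTL. With 4 libraries these distances describe the libraries and carry no test.

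Receptors of these factors were mostly near 0 in the same cells. Of 12 receptor genes, 10 were below the level for testing, 3 of them (Ackr1, Ccr3 and Csf3r) listed at 0 in all 4 libraries, and the 2 tested, Ccr1 and Csf1r, did not pass for suffix R. Cxcr2, the neutrophil receptor, reached at most 0.104 FPKM, and the GM-CSF receptor genes Csf2ra and Csf2rb at most 0.124 and 0.0743. Csf1r, the receptor of Csf1, had 1.998 FPKM in CT26_102_R and 1.10 in CT26_102, and 0.158 in CT26_CTL_R and 0.965 in CT26_CTL (adjusted p = 0.808 for suffix R, limma). Ccr1, a receptor for Ccl7 and other chemokines, was lower in stem CT26_102, at 2.44 FPKM in CT26_102_R and 0.440 in CT26_102 against 8.59 in CT26_CTL_R and 6.31 in CT26_CTL (log2 difference -1.91 ± 0.24, SE, limma, adjusted p = 0.0130). Its difference for suffix R was 0.82 ± 0.24 (SE, limma, adjusted p = 0.0783).

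Of 29 other chemokine and Csf1r ligand genes, 8 were tested. With suffix R 3 rose (Cxcl10, Ccl4 and Ccl5) and 0 fell, where 7.57% of all tested genes rose and 5.32% fell. The median log2 difference was 0.43 against 0.00 over all tested genes. Ccl4, which encodes MIP-1 beta, had 3.60 FPKM in CT26_102_R and 0.770 in CT26_102, and 17.9 in CT26_CTL_R and 1.11 in CT26_CTL (log2 difference 2.27 ± 0.42, adjusted p = 0.0392). Between the stems 3 were lower in CT26_102 (Cxcl10, Ccl5 and Ccl20) and 0 higher, with a median of -0.69 against 0.05 over all tested genes. The shares of all tested genes were 9.44% lower and 12.5% higher. Ccl20, a ligand of CCR6, had 0.710 FPKM in CT26_102_R and 0.0325 in CT26_102 against 2.88 in CT26_CTL_R and 2.06 in CT26_CTL, so it entered the test only through the stem where it was high. Il34, the second ligand of the Csf1 receptor, did not pass for suffix R, with 4.92 FPKM in CT26_102_R and 3.56 in CT26_102, and 5.18 in CT26_CTL_R and 4.97 in CT26_CTL (adjusted p = 0.356).

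Among 12 cytokines that are known to act upstream of or beside these factors, 2 were tested, Il6 and Lif. Both passed as higher with suffix R, where 7.57% of all tested genes rose and 5.32% fell. Between the stems Il6 alone passed, where 9.44% of all tested genes were lower in CT26_102 and 12.5% higher. Il6 reached 1 FPKM only in the libraries with suffix R, and so entered the test through the group where it was high. It had 1.18 FPKM in CT26_102_R and 0.0190 in CT26_102, and 2.73 in CT26_CTL_R and 0.705 in CT26_CTL (log2 difference 1.11 ± 0.16, adjusted p = 0.0252), and -0.76 was its difference between the stems (adjusted p = 0.0320). Lif, a cytokine of the same family, rose with suffix R and had 25.0 FPKM in CT26_102_R and 8.51 in CT26_102, and 28.4 in CT26_CTL_R and 9.88 in CT26_CTL (adjusted p = 0.0174). Il1b, Il17a and Ifng were listed at 0 in all 4 libraries, and Tnf reached at most 0.471 FPKM.

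Of 21 genes for NF-kB, AP-1 and C/EBP factors and their inhibitors, 19 were tested. With suffix R 7 rose and 0 fell, with a median log2 difference of 0.60 (9 rose with upper-quartile scaling). Those that rose were Rela, Nfkbia, Nfkbib, Cebpd, Jun, Junb and Fosl2. Over all tested genes 7.57% rose and 5.32% fell (7.84% and 8.46% with upper-quartile scaling). Rela, the activating NF-kB subunit p65, had 51.8 FPKM in CT26_102_R and 15.9 in CT26_102, and 40.7 in CT26_CTL_R and 23.5 in CT26_CTL (log2 difference 1.21 ± 0.23, adjusted p = 0.0408). Nfkbib, which encodes the inhibitor I-kappa-B beta, had 38.4 FPKM in CT26_102_R and 11.2 in CT26_102, and 54.6 in CT26_CTL_R and 22.0 in CT26_CTL (1.48 ± 0.15, adjusted p = 0.0187). Jun, an AP-1 subunit, had 70.1 FPKM in CT26_102_R and 30.5 in CT26_102, and 87.5 in CT26_CTL_R and 39.2 in CT26_CTL (1.16 ± 0.11, adjusted p = 0.0179). Between the stems 6 of the 19 genes were lower in CT26_102 (Nfkb2, Relb, Nfkbib, Cebpb, Junb and Jund) and 1 was higher (Fos). Over all tested genes 9.44% were lower there and 12.5% higher. Relb, the subunit of the alternative NF-kB pathway, had 7.83 FPKM in CT26_102_R and 3.54 in CT26_102 against 13.5 in CT26_CTL_R and 12.4 in CT26_CTL (-1.14 ± 0.23, adjusted p = 0.0314). Rela did not pass between the stems (adjusted p = 0.777).

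All 9 factors of cytokine mRNA decay and stability were tested. Zfp36 and Zfp36l1, whose proteins bind AU-rich elements and promote decay, rose with suffix R, and 0 fell. Over all tested genes 7.57% rose and 5.32% fell. Zfp36, or tristetraprolin, had 9.22 FPKM in CT26_102_R and 5.53 in CT26_102, and 13.5 in CT26_CTL_R and 7.11 in CT26_CTL (0.74 ± 0.14, adjusted p = 0.0385). Zfp36l1 had 42.4 FPKM in CT26_102_R and 14.1 in CT26_102, and 24.6 in CT26_CTL_R and 10.7 in CT26_CTL (1.33 ± 0.15, adjusted p = 0.0201). Between the stems 1 of the 9 genes passed, where 12.5% of all tested genes were higher in CT26_102 and 9.44% lower. It was Rc3h1, which encodes the decay factor roquin and was higher in CT26_102 (0.63 ± 0.14, SE, limma, adjusted p = 0.0361). With upper-quartile scaling Zfp36l1 was higher too (0.56, limma, adjusted p = 0.0405). The median of these 9 genes was 0.00 for suffix R and -0.05 with upper-quartile scaling.

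Myeloid cells themselves make several of these factors, so their markers were examined. Of 15 myeloid markers, 6 reached 1 FPKM in any library and were tested, with a median log2 difference of 0.03 for suffix R. The sum of all 15 was 171 FPKM in CT26_102_R and 44.3 in CT26_102, and 131 in CT26_CTL_R and 72.3 in CT26_CTL. Most of each sum came from Cd68, Cd14 and Lyz2, so it does not describe the markers as a set. Cd68 and Cd14, 2 of the 6 tested, rose with suffix R and 0 fell, where 7.57% of all tested genes rose and 5.32% fell. Cd68 and Cd14 stood highest in CT26_CTL_R, like Cxcl1, Csf1 and Csf2. Cd68, a lysosomal protein of macrophages, had 63.9 FPKM in CT26_102_R and 8.49 in CT26_102, and 86.4 in CT26_CTL_R and 28.3 in CT26_CTL. Ptprc, the pan-leukocyte gene CD45, had at most 0.0880 FPKM, Itgam at most 0.161 and Adgre1 at most 0.132, and S100a9 was listed at 0 throughout. Lyz2, which encodes lysozyme, had 53.1 FPKM in CT26_102_R and 15.0 in CT26_102, and 4.36 in CT26_CTL_R against 13.1 in CT26_CTL. Fcer1g had 1.58 FPKM in CT26_102_R and 0.776 in CT26_102, and 0.0420 in CT26_CTL_R against 1.62 in CT26_CTL. Tyrobp had 13.4 FPKM in CT26_102_R and 4.92 in CT26_102, and was listed at 0 in CT26_CTL_R against 5.09 in CT26_CTL. These 3 markers and Csf1r were lowest in CT26_CTL_R, where Cxcl1, Csf1 and Csf2 were highest. The 8 T and NK cell markers reached at most 0.753 FPKM in sum and the 6 endothelial markers at most 0.718. The sum of the 8 fibroblast markers was 108 FPKM in CT26_102_R and 233 in CT26_102, and 81.5 in CT26_CTL_R and 114 in CT26_CTL. The part of these marker genes in the results for Cxcl1, Csf1 and Csf2 was not tested.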

How the data were processed

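RNA-seq was measured in 4 CT26 libraries. The authors deposited FPKM per gene and library, and no counts. For the aligner, the quantifier and strand, the entry is "not given in the sources used here". GRCm38 and mm10, names of 1 assembly, are listed per the submitters' processing notes. Of the identifiers, 99.67% are in GENCODE M21, which gave positions, lengths, coding regions and transcripts. Promoters came from RefSeq. The members, gene lists and tests were chosen with earlier results of these data known. All 9 members were to be named, and from each list the genes past the threshold. Likeness was to be ranked for Cxcl1, Ccl2 and Csf1. Ccl2 was below the filter and has no ranking. The receptors, chemokines, cytokines, factors and markers named beyond this rule were chosen after their values were seen.

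Genes with at least 1 FPKM in at least 2 libraries were tested (11955 genes) as log2(FPKM + 1), with R 4.3.3 and limma 3.58.1 (lmFit, eBayes with a trend). Stem and labelled group were both terms, which left 1 residual degree of freedom beside 4.01 prior ones. That residual is the gap between the stems in the suffix difference. Tests were two-sided, with Benjamini-Hochberg adjustment over all tested genes and a threshold of 0.05. Rose, fell, higher and lower in a count of called genes mean past that threshold. Errors with ± are standard errors. Same-stem libraries deviated together from their group means (Pearson 0.723 across genes). The fit was tested on simulated data with independent noise, in which no gene of low mean level was changed. It therefore does not cover changes of low genes.

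Depth was estimated from the FPKM step that 1 fragment makes in single-transcript genes of at least 300 bases. Between 32.7% and 34.6% of values below 5 fragments were whole within 0.02 fragments, so fragment numbers are approximate, and for genes with several transcripts they are upper estimates. Alternatives were the fit without the second term, other pseudocounts, no filter, both scalings, no trend and each library left out.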

Additional observations from a re-analysis of the deposited data

Results flagged for a closer look

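The FPKM differences of Cxcl2 and Cxcl3 for suffix R had opposite signs in the stems. For Cxcl2, the FPKM difference of suffix R minus none was 0.0196 in stem CT26_102 and -0.1828 in stem CT26_CTL, where the library with suffix R was listed at 0. For Cxcl3, the difference was -0.0261 in stem CT26_102 and 0.0654 in stem CT26_CTL. Neither difference between the stems was tested, since each combination of stem and suffix was 1 library, and both genes were represented by few fragments. For Cxcl3 these were about 1 in CT26_102_R and 3 in CT26_102, and 19 in CT26_CTL_R and 18 in CT26_CTL. For Cxcl3 such numbers are too small to read a direction in either stem. For Cxcl2 the numbers were about 1 in CT26_102_R and 0 in CT26_102, which gives no direction. In stem CT26_CTL Cxcl2 was lower with suffix R, at 0 in CT26_CTL_R against about 10 in CT26_CTL.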

How the results depend on the processing

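For Cxcl1, Csf1 and Csf2, both comparisons kept their direction and stayed past the threshold under other pseudocounts, both scalings and no mean-variance trend, with adjusted p between 0.00167 and 0.0487 (limma). The log2 difference of Csf2 for suffix R moved between 2.90 and 4.34 with these settings, and that between the stems between -3.56 and -2.25. With the tested division alone in the fit (no replicate block), 0 of the 3 passed in either comparison, and 1 gene in all passed for suffix R (1281 at an unadjusted p under 0.05) and 34 between the stems, against 1541 and 2623 with the stem and suffix paired in the fit. Without the filter, 0 genes and 0 of the 9 members passed in either comparison, with 27670 genes tested and 4937 and 5802 at an unadjusted p under 0.05. With 1 library left out and the tested division alone, between 2 and 11 genes passed for suffix R and between 0 and 16 between the stems, and 0 members in each case. That fit assumes that a lone library varies like the others. With both terms, leaving out a library gives the difference in the complete pair, which kept its direction for the 3 genes. For the low genes, depth limits what can be ordered. The cause of the lost calls was not tested.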
